A study of Mus musculus with 6 samples.

Results

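The 59 genes described here encode proteins that carry a cell through mitosis and divide it: the spindle checkpoint, the kinetochore, the chromosomal passenger complex and mitotic kinases, CDK1 with its cyclins and CDC25 phosphatases, the machinery of anaphase entry, spindle motors and spindle-associated proteins, cytokinesis proteins, and condensin with other mitotic chromosome proteins. They were taken by gene symbol from a table of 24532 mouse genes. All 59 were found, and all 59 had at least 1 read in every library, the condition for the 14223 genes tested. The RNA came from primary articular chondrocytes, the cells of joint cartilage, isolated from 5-day-old ICR mice and maintained in 10% serum at 3% O2. The methods also name a hyaluronidase treatment before transfection, under serum-free conditions. Cells received 50 nM *Sephs1* siRNA or 50 nM negative control siRNA, in 2 transfections of 12 h each followed by 48 h in fresh medium, with 3 biological replicates in each group. *Sephs1* encodes selenophosphate synthetase 1, and the siRNA lowers its mRNA without removing the gene. Whether a replicate number stood for a separate pool of mice is not stated in the sources used here.

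Transcripts of most of these genes build up in G2 and mitosis and are scarce in resting cells. Their level in a bulk culture therefore depends on how many cells are in those phases. In such RNA, more dividing cells, a longer stay or arrest in G2 or mitosis, and more RNA per cell cannot be told apart. Chondrocytes divide in the growing cartilage of a young animal and in early culture, while those of adult joint cartilage divide little. Much of the timing comes from the promoters. A short element named the cell cycle genes homology region (CHR) is bound by the MuvB complexes, which repress these genes in resting cells and, together with B-Myb and FOXM1, activate them in G2. CCAAT boxes, bound by NF-Y, often lie upstream of it.

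The promoter windows show what the genes share in sequence. RefSeq windows on GRCm38.p6 (the mm10 assembly), from 250 bases before to 50 bases after an annotated transcript start, were matched for 50 of the 59 genes. The 9 without a window were *Spc24*, *Zwilch*, *Aurkb*, *Incenp*, *Ccna2*, *Cdc25c*, *Tpx2*, *Kif20a* and *Smc4*. The CHR letters TTTGAA, read on either strand, were in a window of 34 of the 50 genes (68%), against 20.2% of all 27025 genes with a window. CCAAT on either strand was in 37 of the 50 (74%), against 41.1% of all genes. A CHR and a CCAAT box together were in the same window in 29 of the 50 (58%), against 7.97% of all genes. The E2F letters TTTGGCGC or TTTCCCGC were in 5 of the 50 (10%), against 1.80% of all genes. All 6 matched cytokinesis genes, 5 of 6 matched spindle motors and 5 of 6 matched condensin and chromosome genes held a CHR, whereas 5 of 11 matched kinetochore genes did. These are matches of letters and say nothing of binding.

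Windows of the 6 genes with a CHR that had the smallest p in their comparison below are given so that the spacing of the elements can be read. Capitals mark TTTGAA or its reverse complement TTCAAA, and CCAAT or its reverse complement ATTGG. Each sequence runs 5′ to 3′ on the strand of the gene.
Kif2c (chr4:117178723-117179022, strand -): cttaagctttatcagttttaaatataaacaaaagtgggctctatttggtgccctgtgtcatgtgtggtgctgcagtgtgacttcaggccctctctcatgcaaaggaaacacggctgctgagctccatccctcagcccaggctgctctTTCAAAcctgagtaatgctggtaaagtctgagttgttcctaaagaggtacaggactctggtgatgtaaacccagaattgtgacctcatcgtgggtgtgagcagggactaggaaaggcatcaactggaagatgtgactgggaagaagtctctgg
Bub1b (chr2:118597961-118598260, strand +): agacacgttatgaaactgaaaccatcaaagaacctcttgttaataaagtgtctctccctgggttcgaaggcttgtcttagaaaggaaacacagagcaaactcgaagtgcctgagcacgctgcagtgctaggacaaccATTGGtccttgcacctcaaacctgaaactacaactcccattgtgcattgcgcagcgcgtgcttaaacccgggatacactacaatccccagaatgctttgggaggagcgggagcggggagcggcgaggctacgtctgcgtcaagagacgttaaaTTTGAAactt
Prc1 (chr7:80294201-80294500, strand +): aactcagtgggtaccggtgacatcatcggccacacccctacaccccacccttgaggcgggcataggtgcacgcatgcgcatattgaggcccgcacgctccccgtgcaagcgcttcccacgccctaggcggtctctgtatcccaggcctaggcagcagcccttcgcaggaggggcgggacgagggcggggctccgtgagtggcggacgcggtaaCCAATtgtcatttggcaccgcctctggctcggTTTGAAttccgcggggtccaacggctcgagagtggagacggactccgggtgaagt
Ube2c (chr2:164769679-164769978, strand +): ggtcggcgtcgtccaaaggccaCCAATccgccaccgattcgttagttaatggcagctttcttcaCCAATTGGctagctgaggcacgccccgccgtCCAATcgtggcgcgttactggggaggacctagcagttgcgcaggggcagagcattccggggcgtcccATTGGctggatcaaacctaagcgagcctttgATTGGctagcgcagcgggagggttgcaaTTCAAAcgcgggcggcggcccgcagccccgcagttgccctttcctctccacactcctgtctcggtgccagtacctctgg
Aurka (chr2:172370521-172370820, strand -): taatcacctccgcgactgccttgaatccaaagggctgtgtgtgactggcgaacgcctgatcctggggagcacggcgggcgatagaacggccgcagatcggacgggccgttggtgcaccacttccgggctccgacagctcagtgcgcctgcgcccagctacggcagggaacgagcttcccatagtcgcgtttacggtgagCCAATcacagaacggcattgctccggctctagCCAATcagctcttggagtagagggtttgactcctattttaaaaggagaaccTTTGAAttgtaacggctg
Ttk (chr9:83834439-83834738, strand +): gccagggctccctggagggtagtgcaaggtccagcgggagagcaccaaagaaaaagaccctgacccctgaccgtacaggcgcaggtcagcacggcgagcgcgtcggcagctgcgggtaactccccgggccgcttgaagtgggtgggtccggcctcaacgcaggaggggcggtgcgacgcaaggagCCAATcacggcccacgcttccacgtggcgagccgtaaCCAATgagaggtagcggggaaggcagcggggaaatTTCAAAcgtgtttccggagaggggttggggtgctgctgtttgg
Counted from the annotated start, the CHR began at base -5 in *Prc1* and -29 in *Ube2c*, and at 8, 33 and 41 in *Ttk*, *Aurka* and *Bub1b*. In *Kif2c* it began at -103, with no CCAAT in the window. The whole windows of *Kif2c* and *Aurka* lie inside the genes as annotated, so their positions are counted from an internal start. *Ube2c* held the most CCAAT boxes of these 6 windows, with 1 forward and 1 reverse match overlapping.

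The siRNA target was measured first as a check of the labels. *Sephs1* stood at 36.1, 24.9 and 21.5 TMM-scaled CPM (reads scaled to library size) in *Sephs1* siRNA replicates 1, 2 and 3, against 50.7, 44.7 and 44.7 CPM in control replicates 1, 2 and 3. The groups did not overlap. The log2 fold change was -0.76 (standard error 0.19, unadjusted p = 0.00525, adjusted p = 0.392 from edgeR), and with the replicate number as a block it was -0.79 (adjusted p = 0.04). The 6 libraries held between 58214060 and 80887889 reads. The label of chondrocytes was borne out by *Col2a1*, the collagen of cartilage, at 64266 to 78121 CPM in *Sephs1* siRNA libraries and 69970 to 89877 CPM in control libraries. *Acan*, the cartilage proteoglycan aggrecan, was at 6818 to 9279 CPM in *Sephs1* siRNA libraries and 6795 to 11613 CPM in control libraries. All 5 erythroid markers were at 0 in every library. Of the endothelial and mural markers, *Cdh5* was at 0 in every library. *Cspg4* of the same list was at 371 to 432 CPM with *Sephs1* siRNA and 417 to 428 CPM with control siRNA. The leukocyte marker *Ptprc* reached at most 0.0594 CPM. The 4 leukocyte markers tested summed to 8.76 to 11.1 CPM with *Sephs1* siRNA and 8.13 to 10.4 CPM with control siRNA. The 8 fibroblast markers summed to 19603 to 23263 CPM with *Sephs1* siRNA and 20737 to 26762 CPM with control siRNA. *Postn*, a fibroblast and perichondrium marker, was highest in replicate 3 of both groups, at 60.2 CPM with *Sephs1* siRNA and 78.0 CPM with control siRNA, against 22.7 to 38.5 CPM in the other libraries. *Col2a1* was lowest in replicate 3 of both groups. Of 11 chondrocyte markers tested, 0 passed the unadjusted p of 0.05 used below, but with the replicate block 6 were lower (11.2% of all genes were) and 1, *Comp*, was higher. *Col2a1* then had a log2 fold change of -0.16 (unadjusted p = 0.000866) and the cartilage matrix gene *Chad* one of -0.65 (unadjusted p = 0.00102). Of 8 fibroblast markers, 0 passed without the block, and 3 were higher and 4 lower with it (13.1% and 11.2% of all genes). Of 6 osteoblast markers tested, 2 were lower at the unadjusted p, against 3.63% of all genes. With the block 3 were lower (11.2% of all genes) and 1 was higher (13.1% of all genes). The higher one was *Dmp1*, at most 0.733 CPM in any library. The list summed to 56.6, 59.3 and 37.9 CPM with *Sephs1* siRNA, against 74.7, 78.7 and 54.9 CPM with control siRNA. *Alpl*, the alkaline phosphatase of mineralizing cells, was at 12.9, 9.77 and 6.55 CPM with *Sephs1* siRNA, against 26.6, 27.2 and 16.6 CPM with control siRNA (log2 fold change -1.27, standard error 0.29, unadjusted p = 0.00334). Its adjusted p was 0.392 in edgeR, 0.00184 in DESeq2 and 0.0183 with the block. *Phex*, the other gene lower without the block, was under 0.5 CPM in every library and did not pass with the block (unadjusted p = 0.0547 from edgeR). The part of these differences in the results below was not tested.

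Mitotic transcripts were more abundant after *Sephs1* siRNA. The summed level of the 59 genes was 2536, 3027 and 2552 CPM in *Sephs1* siRNA replicates 1, 2 and 3, against 1276, 1623 and 2252 CPM in control replicates 1, 2 and 3. The log2 fold change was positive for 59 of 59 genes, with a median of 0.66 (a fold of 1.58), an interquartile range of 0.55 to 0.73 and a range of 0.01 to 1.42. The median over all 14223 genes was 0.01. At the unadjusted p under 0.05 that the study's methods used, 43 of the 59 genes (72.9%) were higher, against 4.98% of all genes tested, and 0 were lower, against 3.63% of all genes. For 42 of the 59 (71.2%) every *Sephs1* siRNA library was above every control library, against 7.8% of all genes, and 0 lay wholly below, against 7.09% of all genes.

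No gene of the 59 passed an adjusted p under 0.05 in edgeR, where 0.0141% of all genes did, and the smallest adjusted p was 0.357 for *Kif2c*. DESeq2 on the same counts found 44 of the 59 higher at the unadjusted p (5.06% of all genes) and 19 (32.2%) at an adjusted p under 0.05, where 1.03% of all genes tested were higher. When replicate number was fitted as a block, 55 of the 59 were higher at the unadjusted p, against 13.1% of all genes, and 0 passed the adjusted p (1.65% of all genes in either direction and 0.83% higher), the smallest being 0.0581 for *Espl1*. Leaving out 1 library at a time, the count at the unadjusted p was lowest without control replicate 2, at 28 of 59 (3.82% of all genes), and highest without control replicate 3, at 52 of 59 (6.86% of all genes).

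**Figure D1:**
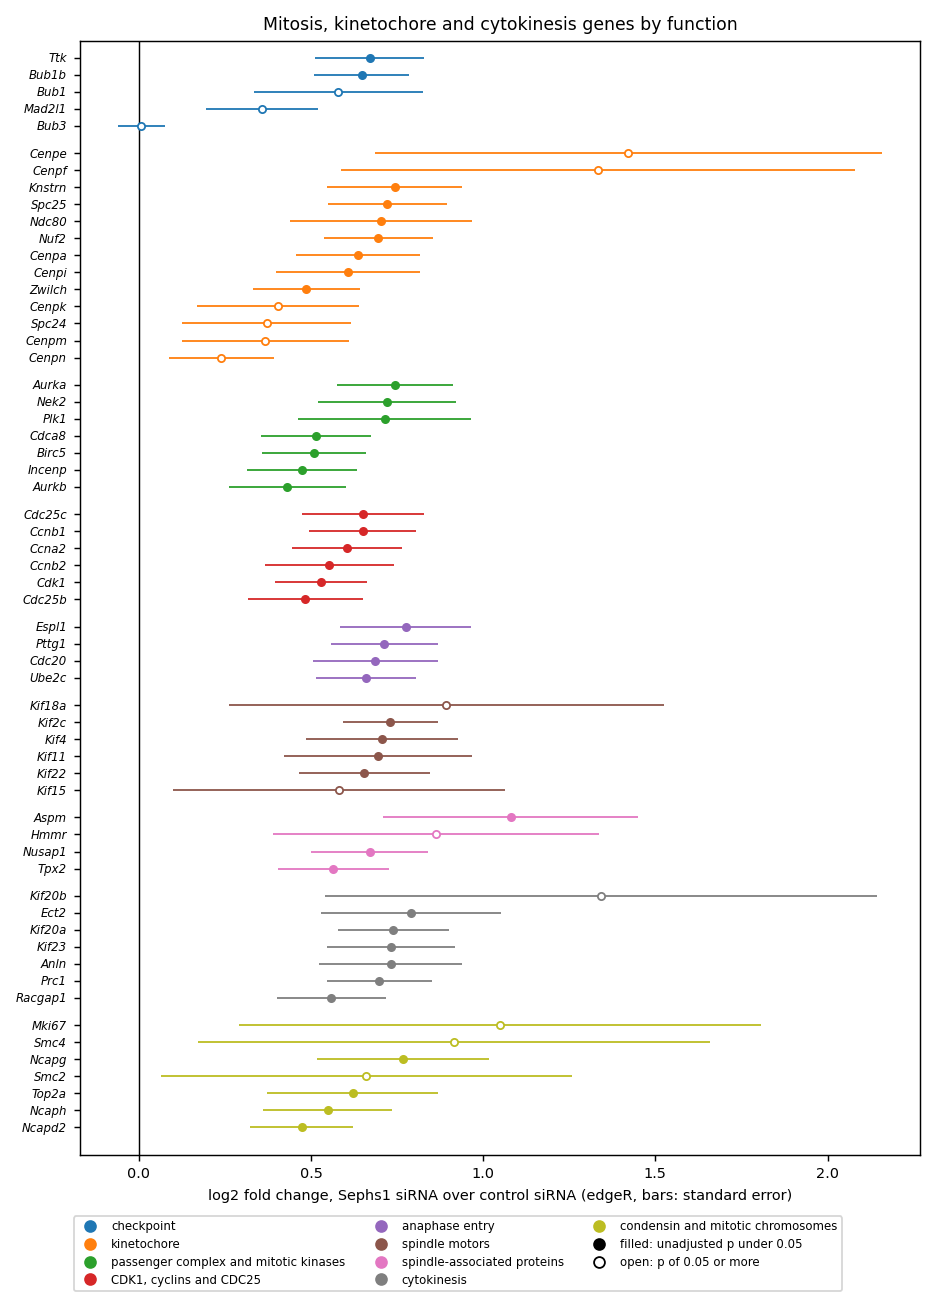
Log2 fold change of each of the 59 genes, *Sephs1* siRNA over control siRNA (points, edgeR), with its standard error (bars), grouped by function. Filled points passed an unadjusted p under 0.05, and 46 points sit between 0.4 and 0.8, with *Bub3* at 0.01 and *Cenpe* at 1.42 at the ends.

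Beside the class counts below, 4.98% of all genes were higher at the unadjusted p, and 13.1% with the replicate block. The checkpoint, which holds back anaphase until every kinetochore is attached, had 2 of 5 genes higher at the unadjusted p, and 3 with the replicate block. *Ttk*, which encodes the kinase MPS1 that starts checkpoint signalling, and *Bub1b*, which encodes BubR1 of the mitotic checkpoint complex, were those 2, and *Bub1*, *Mad2l1* and *Bub3* did not pass. *Bub1b*, encoded on chromosome 2 (118598202 to 118641592), was measured at 39.2, 37.6 and 35.6 CPM in *Sephs1* siRNA replicates 1, 2 and 3, against 20.1, 22.8 and 28.9 CPM in control replicates 1, 2 and 3. Its log2 fold change was 0.65 (standard error 0.14, unadjusted p = 0.00234, adjusted p = 0.385 from edgeR), and the groups did not overlap. *Ttk* differed by 0.67 on the log2 scale (standard error 0.16, unadjusted p = 0.00399), with groups that did not overlap either. The checkpoint kinase *Bub1* had a similar log2 fold change of 0.58 with a larger standard error of 0.25 (unadjusted p = 0.0516), and passed with the block (unadjusted p = 0.0174). *Bub3*, the WD-repeat partner of Bub1 and BubR1, gave 79.6, 79.9 and 77.6 CPM with *Sephs1* siRNA, against 78.1, 74.2 and 83.8 CPM with control siRNA. Its groups overlapped, and its log2 fold change of 0.01 had a standard error of 0.07 (unadjusted p = 0.927). *Bub3* was also the gene of the 59 with the second highest level per length in control libraries, at 36.7 ± 3.11 FPKM (SD, n = 3), after *Ube2c* at 43.3 ± 9.13 FPKM.

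Of the 13 kinetochore genes, 7 were higher at the unadjusted p (4.98% of all genes), and 11 with the replicate block (13.1% of all genes). The class median was 0.64 on the log2 scale. The NDC80 complex, which grips the ends of microtubules, had 3 of its 4 subunits higher. *Nuf2*, on chromosome 1 (169497934 to 169531464), was at 43.3, 43.2 and 33.5 CPM with *Sephs1* siRNA, against 20.6, 24.2 and 29.3 CPM with control siRNA (log2 fold change 0.70, standard error 0.16, unadjusted p = 0.00345). *Spc25* was at 30.5, 30.9 and 24.8 CPM, against 14.6, 15.9 and 21.8 CPM with control siRNA, and *Ndc80* at 22.8, 28.8 and 25.4 CPM, against 9.72, 16.4 and 21.1 CPM with control siRNA. None of these groups overlapped. The remaining subunit, *Spc24*, gave 7.39, 6.16 and 7.63 CPM with *Sephs1* siRNA and 4.42, 4.32 and 7.61 CPM with control siRNA, so that its groups overlapped (unadjusted p = 0.174, and 0.0476 with the block). *Knstrn*, which encodes the spindle and kinetochore protein kinastrin, was higher by 0.74 on the log2 scale (standard error 0.20, unadjusted p = 0.00702). *Cenpa*, the centromeric histone variant, was higher at 26.4, 23.1 and 19.0 CPM, against 12.8, 13.1 and 18.2 CPM with control siRNA. Among inner kinetochore genes *Cenpi* passed the unadjusted test, while *Cenpk*, *Cenpn* and *Cenpm* had log2 fold changes of 0.40, 0.24 and 0.37 without passing it. The groups did not overlap in *Cenpk*, which passed with the block (unadjusted p = 0.0444), as did *Cenpe* (unadjusted p = 0.00411) and *Cenpf* (unadjusted p = 0.00415). *Cenpm* had the largest p of the class, with 5.17, 3.21 and 5.97 CPM in *Sephs1* siRNA libraries and 3.28, 4.03 and 3.81 CPM in control libraries.

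All 7 genes of the chromosomal passenger complex and mitotic kinases were higher at the unadjusted p, with log2 fold changes from 0.43 to 0.74. *Aurka*, the Aurora A kinase of the spindle poles, on chromosome 2 (172356190 to 172370886), was at 40.8, 41.4 and 32.5 CPM with *Sephs1* siRNA, against 19.1, 21.1 and 28.3 CPM with control siRNA. Its log2 fold change was 0.74 (standard error 0.17, unadjusted p = 0.00335), and no control library reached a *Sephs1* siRNA library. *Nek2*, a centrosomal kinase, was higher by 0.72 (standard error 0.20), and *Plk1*, the Polo-like kinase, by 0.71 (standard error 0.25), both on the log2 scale. The 4 passenger complex subunits had smaller values: 0.51 for *Birc5* (survivin), 0.51 for *Cdca8* (borealin), 0.47 for the scaffold *Incenp* and 0.43 for the kinase *Aurkb*. *Aurkb* had the largest p of the class (0.0398), and its 22.0, 25.9 and 23.9 CPM with *Sephs1* siRNA overlapped the 14.8, 15.9 and 22.6 CPM of the control libraries through control replicate 3 alone.

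CDK1, its cyclins and the CDC25 phosphatases that switch it on were higher in 6 of 6 genes, between 0.48 and 0.65 on the log2 scale. *Ccnb1* (cyclin B1), on chromosome 13 (100778739 to 100786486), was at 81.8, 77.3 and 61.2 CPM with *Sephs1* siRNA, against 40.5, 44.0 and 55.9 CPM with control siRNA (log2 fold change 0.65, standard error 0.16, unadjusted p = 0.00437). *Cdk1* itself was at 91.2, 93.5 and 76.7 CPM, against 51.8, 58.4 and 71.0 CPM with control siRNA. *Ccna2* (cyclin A2) was at 94.7, 94.4 and 77.1 CPM, against 48.0, 55.6 and 71.6 CPM with control siRNA. In *Ccnb1*, *Cdk1* and *Ccna2* every *Sephs1* siRNA library exceeded every control library, and the narrowest gap lay between *Sephs1* siRNA replicate 3 and control replicate 3. *Cdc25b* had the largest p of the class (log2 fold change 0.48, standard error 0.17, unadjusted p = 0.0246), and *Cdc25c* was higher by 0.65 on the log2 scale. *Ccnb2* (cyclin B2) was at 42.3, 33.8 and 28.6 CPM with *Sephs1* siRNA, against 20.5, 21.7 and 29.1 CPM with control siRNA (log2 fold change 0.55, standard error 0.19, unadjusted p = 0.022). It was the 1 gene of this class whose groups overlapped, through control replicate 3.

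The 4 genes of anaphase entry were all higher, and DESeq2 put all 4 past an adjusted p under 0.05. *Pttg1* encodes securin, which restrains separase, and *Espl1* encodes separase, which cuts cohesin. *Pttg1*, on chromosome 11 (43420244 to 43427463), was at 14.6, 12.5 and 10.6 CPM with *Sephs1* siRNA, against 6.75, 7.53 and 8.70 CPM with control siRNA (log2 fold change 0.71, standard error 0.16, unadjusted p = 0.00278). *Espl1* was at 18.5, 21.9 and 20.7 CPM, against 9.47, 10.7 and 15.5 CPM with control siRNA. *Ube2c*, the ubiquitin-conjugating enzyme of the anaphase-promoting complex (APC/C), was at 71.6, 67.8 and 58.2 CPM, against 35.0, 40.0 and 50.1 CPM with control siRNA, and its activator *Cdc20* was higher by 0.69 on the log2 scale (standard error 0.18). No groups overlapped in this class.

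Among the 6 spindle motors, 4 were higher, and 6 with the replicate block. *Kif2c* encodes MCAK, a kinesin that takes microtubules apart, and had the smallest p of all 59 genes. On chromosome 4 (117159633 to 117182624), it stood at 34.4, 32.8 and 27.9 CPM with *Sephs1* siRNA, against 16.8, 18.1 and 22.5 CPM with control siRNA, a log2 fold change of 0.73 (standard error 0.14, unadjusted p = 0.00119, adjusted p = 0.357 from edgeR, adjusted p = 0.00127 from DESeq2). The chromokinesins *Kif22* and *Kif4* were higher by 0.65 and 0.71, and *Kif11*, the Eg5 motor that pushes spindle poles apart, by 0.69. *Kif15* and *Kif18a* had log2 fold changes of 0.58 and 0.89 with standard errors of 0.48 and 0.63, and neither passed the unadjusted test without the block (with it, unadjusted p = 0.013 and 0.0134). Of the 4 spindle-associated genes, *Nusap1*, *Tpx2* and *Aspm* were higher, and all 4 with the block. *Nusap1*, on chromosome 2 (119618298 to 119650165), was at 47.3, 48.6 and 39.3 CPM with *Sephs1* siRNA, against 21.7, 29.7 and 33.6 CPM with control siRNA. *Tpx2*, which encodes an activator of Aurora A, was at 114, 109.8 and 92.6 CPM, against 58.6, 67.5 and 88.1 CPM with control siRNA (log2 fold change 0.56, standard error 0.16, unadjusted p = 0.0103), and its groups did not overlap. *Aspm*, a spindle pole protein gene, had the largest log2 fold change of the genes that passed, 1.08 (standard error 0.37), at 28.2, 42.5 and 33.1 CPM, against 8.13, 16.8 and 24.1 CPM with control siRNA. *Hmmr* gave 26.9, 53.9 and 43.5 CPM, against 9.45, 22.7 and 36.1 CPM with control siRNA, and its groups overlapped (unadjusted p = 0.112, and 0.00633 with the block).

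Cytokinesis genes were higher in 6 of 7. *Prc1*, which bundles the antiparallel microtubules of the midzone, lies on chromosome 7 (80294445 to 80316259) and reached 127, 136 and 111 CPM with *Sephs1* siRNA, against 64.0, 72.9 and 94.0 CPM with control siRNA (log2 fold change 0.70, standard error 0.15, unadjusted p = 0.00269). *Kif20a*, the midzone kinesin MKLP2, was at 97.0, 94.1 and 69.6 CPM, against 45.6, 49.3 and 61.2 CPM with control siRNA. The centralspindlin motor *Kif23* and its partner *Racgap1* were higher by 0.73 and 0.56, the RhoA exchange factor *Ect2* by 0.79, and *Anln*, the anillin of the cleavage furrow, by 0.73, all on the log2 scale. None of these 6 had overlapping groups. *Kif20b*, the exception, gave 5.10, 22.6 and 15.2 CPM with *Sephs1* siRNA and 1.27, 4.21 and 11.4 CPM with control siRNA, a spread among replicates that left its log2 fold change of 1.34 with a standard error of 0.80 (unadjusted p = 0.139, and 0.00966 with the block).

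Of the 7 condensin and mitotic chromosome genes, *Ncapd2*, *Ncapg* and *Ncaph*, the non-ATPase subunits of condensin I, and *Top2a*, the topoisomerase that untangles sister DNA, were higher. *Ncapd2*, on chromosome 6 (125168007 to 125192100), was at 71.3, 71.0 and 64.1 CPM with *Sephs1* siRNA, against 42.9, 44.1 and 61.8 CPM with control siRNA (log2 fold change 0.47, standard error 0.15, unadjusted p = 0.0161). *Ncapg* was higher by 0.77 (standard error 0.25) and *Ncaph* by 0.55 (standard error 0.19). The condensin ATPases *Smc2* and *Smc4* and the chromosome surface protein gene *Mki67* (Ki-67) did not pass without the replicate block, and with it all 7 genes did (unadjusted p = 0.0121 for *Smc2*, 0.0157 for *Smc4* and 0.00486 for *Mki67*). *Smc2* had the largest p of the class (0.306), with 28.8, 78.9 and 66.3 CPM in *Sephs1* siRNA replicates 1, 2 and 3 and 11.8, 36.9 and 61.3 CPM in control replicates 1, 2 and 3. Its log2 fold change of 0.66 equals the median of the 59 genes, but replicate 1 of each group lay far below the other replicates.

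**Figure D2:**
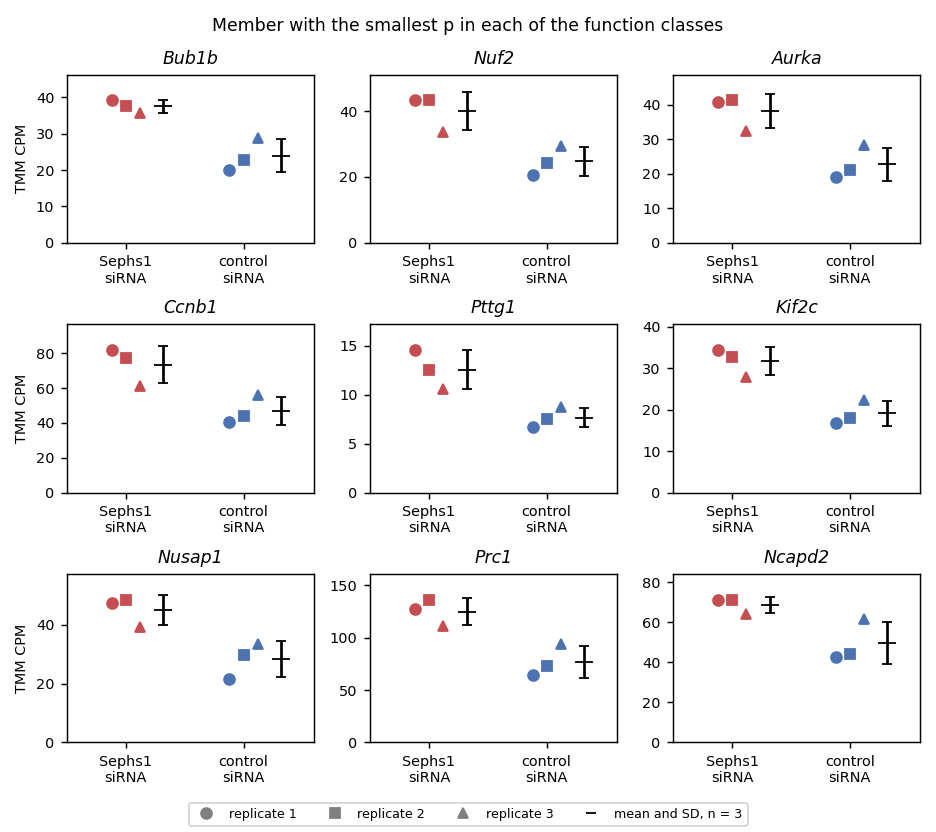
TMM-scaled CPM in each library for the gene with the smallest p of each function class, *Sephs1* siRNA left and control siRNA right, with the mean and SD of 3 replicates beside the points. The groups do not overlap in any of the 9 genes, and control replicate 3 is the highest control library in each.

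The size of the difference depended on the replicate number. The median log2 ratio of *Sephs1* siRNA to control siRNA over the 59 genes was 1.02 in replicate 1, 0.81 in replicate 2 and 0.18 in replicate 3. Over all genes these medians were 0.00, 0.01 and -0.00. The ratio was positive in all 3 replicate numbers for 53 of the 59 genes (89.8%), against 24.2% of all genes tested. The exceptions were *Bub3*, *Ccnb2*, *Cdca8*, *Cenpm*, *Cenpn* and *Mad2l1*. Replicate 3 had the smallest ratio of the 3 in 58 of 59 genes, all but *Cenpm*. This came with high levels in control replicate 3, which was the highest control library for 57 of 59 genes, all but *Cenpk* and *Cenpm*, and exceeded control replicate 1 by a median of 0.64 and control replicate 2 by 0.42 on the log2 scale. *Sephs1* siRNA replicate 3 was below *Sephs1* siRNA replicate 2 by a median of 0.25. Control replicate 1 was the lowest of all 6 libraries for 53 of 59 genes. Every *Sephs1* siRNA library was above control replicates 1 and 2 in 53 of 59 genes, and the exceptions were *Bub3*, *Cenpm*, *Kif15*, *Kif18a*, *Smc2* and *Smc4*. That count leaves out control replicate 3, the highest control library for most of these genes. Shares over all genes are not given for these orders among libraries, so they only describe the 59 genes. Fitted with the block but without replicate 3 of both groups, 55 of 59 genes passed an adjusted p under 0.05, against 8.24% of all genes, and the median log2 fold change was 0.94. Because replicate 3 had the smallest ratios, a larger median without it follows from that choice of libraries. Without replicate 2 of both groups, the same fit gave a median of 0.62, with 50 genes higher at the unadjusted p (8.42% of all genes) and 0 past the adjusted p (0.564% of all genes). Without replicate 1 of both groups, it gave a median of 0.50, with 42 genes higher at the unadjusted p (7.17% of all genes) and 0 past the adjusted p (0.11% of all genes). *Sephs1* itself, at 36.1, 24.9 and 21.5 CPM against 50.7, 44.7 and 44.7 CPM with control siRNA, fell least in replicate 1 and most in replicate 3. That order is opposite to the order of the mitotic ratios, and any link was not tested.

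In the fit without the replicate block, genes with the largest fold changes were not those with the firmest ones. The base composition of the transcripts moved with this. With the block, *Kif20b*, *Cenpe* and *Cenpf* had the largest log2 fold changes, 1.55, 1.54 and 1.52 (unadjusted p = 0.00966, 0.00411 and 0.00415 from edgeR). In the longest GENCODE transcript of each gene, 10 of the 59 (16.9%) had at least 33% A, between 33.4% and 36.6%, against 1.36% of the other genes with at least 5 CPM. These 10, singled out after their values were seen, were *Cenpe*, *Cenpf*, *Ndc80*, *Kif15*, *Kif18a*, *Hmmr*, *Kif20b*, *Smc2*, *Smc4* and *Mki67*. In them replicate 1 was below the mean of replicates 2 and 3 by a median log2 difference of -1.54 with *Sephs1* siRNA and -1.87 with control siRNA. The 135 other genes of at least 33% A also differed in this way, by -1.002 and -1.11, and the 3639 other genes under 24% A by -0.01 and 0.02. *Mki67*, for example, on chromosome 7 (135689784 to 135716450), was at 46.3, 172 and 161 CPM in *Sephs1* siRNA replicates 1, 2 and 3, against 16.4, 45.5 and 122 CPM in control replicates 1, 2 and 3. *Cenpe*, the kinetochore kinesin, on chromosome 3 (135212563 to 135273540), was at 9.23, 40.7 and 29.9 CPM, against 3.03, 7.69 and 19.0 CPM with control siRNA. Within each replicate number both genes were higher with *Sephs1* siRNA, while across replicates the groups overlapped.

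**Figure D3:**
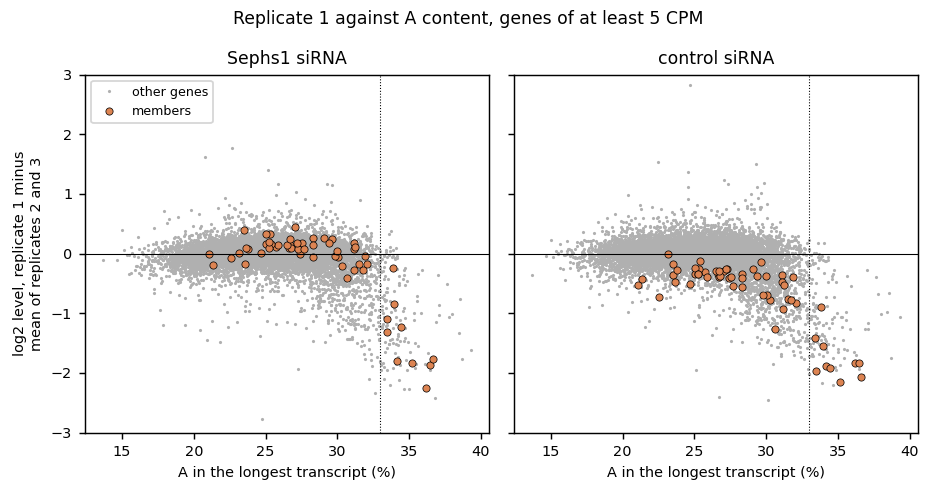
Log2 level in replicate 1 minus the mean of replicates 2 and 3 (vertical axis) against the A content of the longest transcript in percent (horizontal axis) for genes of at least 5 CPM, with *Sephs1* siRNA left and control siRNA right. The members at or above 33% A (dotted line) lie below 0 in both groups, as do most other genes of that A content, and 2 other genes fall outside the vertical axis.

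For these 10 A-rich genes the median standard error was 0.68 without the block and 0.28 with it, against 0.17 and 0.17 for the other 49. Only *Ndc80* of the 10 passed the unadjusted p without the block (4.98% of all genes were higher), whereas 10 of 10 passed with it (13.1%). They account for 9 of the 16 genes that did not pass, the other 7 being *Bub1*, *Bub3*, *Mad2l1*, *Cenpk*, *Cenpm*, *Cenpn* and *Spc24*. With the block, the 4 that did not pass were *Bub3*, *Mad2l1*, *Cenpm* and *Cenpn*. The 49 genes under 33% A had 42 higher at the unadjusted p, against 4.98% of all genes. Their median log2 fold change was 0.65, with medians of 1.00, 0.79 and 0.16 in replicates 1, 2 and 3. The other 135 A-rich genes had a median of 0.36 on the same scale. After each library was corrected for A content, a setting chosen after the data were seen, 46 of the 59 genes were higher at the unadjusted p, against 5.35% of all genes, with a median of 0.59. Of the 10 A-rich genes, 3 then passed, *Ndc80*, *Hmmr* and *Cenpe*. The log2 fold change of *Cenpe* was then 1.10, of *Cenpf* 1.09, of *Kif20b* 1.09, of *Mki67* 0.81, of *Smc4* 0.36 and of *Smc2* 0.35, where the uncorrected values were 1.42, 1.33, 1.34, 1.05, 0.91 and 0.66.

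**Figure D4:**
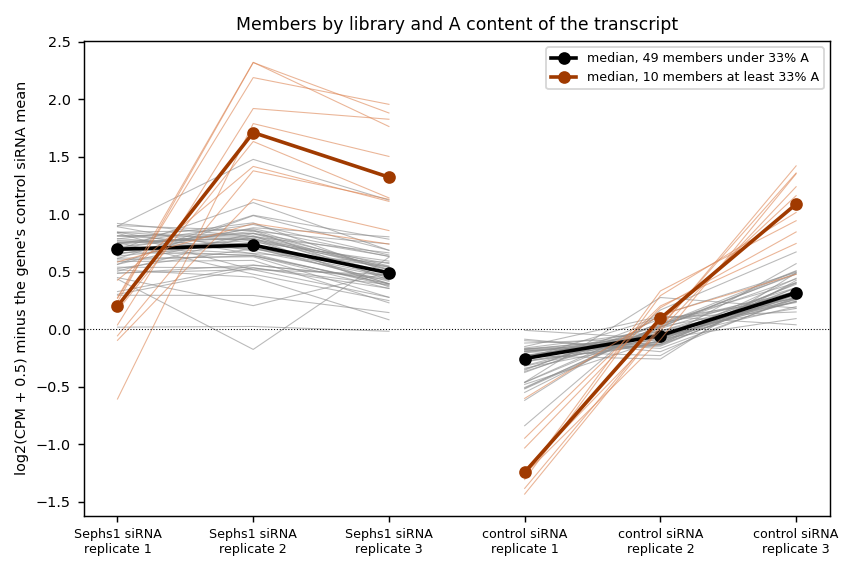
Log2(CPM + 0.5) of each of the 59 genes minus its control siRNA mean, by library, with medians (thick lines) for the 10 genes of at least 33% A and the 49 others. The median of the 49 lies above 0.49 in each *Sephs1* siRNA library and at -0.25, -0.05 and 0.32 in the control libraries, and the 10 A-rich genes are low in replicate 1 of both groups.

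Other genes of the same processes, taken from lists written from general knowledge, were set beside the 59. Of 30 other kinetochore and centromere genes, 14 were higher at the unadjusted p with a median log2 fold change of 0.45, and *Sgol1*, a protector of centromeric cohesin, had the smallest p (0.67, standard error 0.17). Of 18 other spindle and motor genes, 12 were higher with a median of 0.68, and *Dlgap5*, a spindle assembly factor, led with 0.69 (standard error 0.16). Of 12 tested mitotic kinases and phosphatases, 6 were higher with a median of 0.43, led by the histone H3 kinase *Gsg2* (haspin) at 0.62 (standard error 0.15). Of 7 other cytokinesis genes, 5 were higher with a median of 0.61, led by *Cep55*, the abscission scaffold, at 0.79 (standard error 0.15). No gene of these lists was lower at the unadjusted p, where 4.98% of all genes were higher and 3.63% lower. With the replicate block, 20 of the kinetochore and centromere genes and 15 of the spindle and motor genes were higher. So were 10 of the kinases and phosphatases and 5 of the cytokinesis genes, against 13.1% of all genes.

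Further lists of cell division genes were read against the 4.98% of all genes that were higher at the unadjusted p. A list of 17 genes of the APC/C, the ubiquitin ligase that *Cdc20* and *Ube2c* work with, held its subunits together with the activator *Fzr1*, the inhibitor *Fbxo5* and the E2 enzyme *Ube2s*. Its log2 fold changes ran from -0.21 to 0.45 with a median of -0.02, and 1 of the 17 was higher at the unadjusted p, *Fzr1* at 0.24 (standard error 0.09). Of 15 cohesin and condensin II genes, 2 were higher with a median of 0.22, led by the cohesin subunit *Rad21* at 0.25 (standard error 0.07). Of 37 DNA replication genes, 2 were higher with a median of 0.18, led by the ribonucleotide reductase subunit *Rrm1* at 0.39 (standard error 0.13). Replication genes had medians of 0.30, 0.30 and -0.13 in replicates 1, 2 and 3, so that in replicate 3 most were lower with *Sephs1* siRNA, and 6 of 37 had a positive ratio there, against 54 of the 59 mitotic genes. With the replicate block, 3 APC/C genes were higher and 2 lower, 8 cohesin and condensin II genes were higher, and 9 replication genes were higher, where 13.1% of all genes were higher and 11.2% lower. The difference between the lists was not tested.

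**Figure D5:**
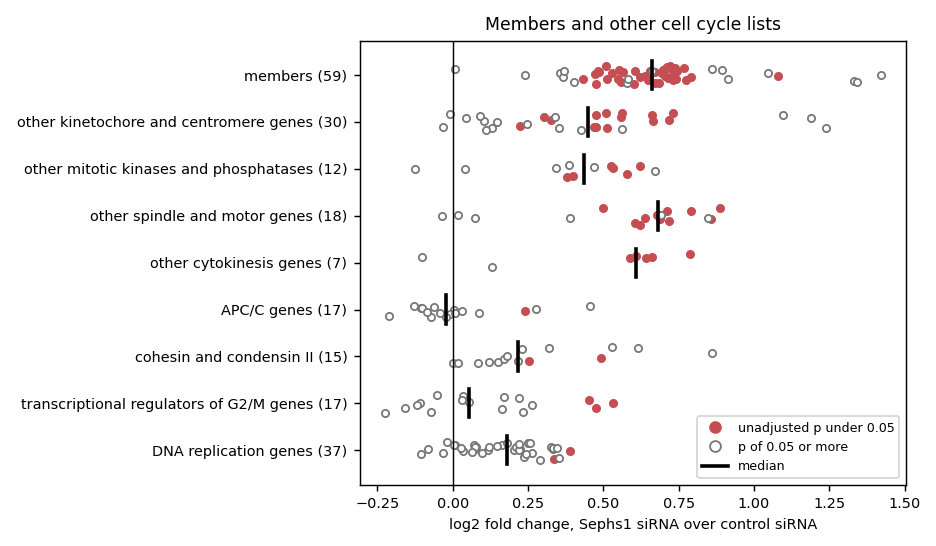
Log2 fold change, *Sephs1* siRNA over control siRNA, of the 59 members and of the genes tested in each other list (1 point per gene, the number of genes in parentheses, the black bar the median, vertical scatter random). Medians of the members, other kinetochore, kinase, spindle and cytokinesis lists lie between 0.43 and 0.68, and those of the APC/C, cohesin, regulator and replication lists between -0.02 and 0.22.

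A list of 17 transcriptional regulators of G2/M genes was measured in the same libraries. It held NF-Y subunits and E2F family genes beside those of MuvB, B-Myb and FOXM1, so not all of them bind the CHR. Of the 17, 3 (*Foxm1*, *E2f7* and *E2f8*) were higher at the unadjusted p and 0 were lower, with a median log2 fold change of 0.05. Over all genes, 4.98% were higher and 3.63% lower. With the replicate block 5 were higher and 1 lower, against 13.1% and 11.2% of all genes. *Foxm1*, which encodes the activator FOXM1, stood at 41.2, 44.5 and 43.8 CPM with *Sephs1* siRNA, against 25.2, 26.9 and 37.4 CPM with control siRNA, a log2 fold change of 0.53 (standard error 0.15, unadjusted p = 0.0104). Its groups did not overlap. *Mybl2*, which encodes B-Myb, gave 7.88, 9.06 and 8.20 CPM, against 7.59, 6.99 and 9.94 CPM with control siRNA, and did not pass (log2 fold change 0.04, standard error 0.16, unadjusted p = 0.829). *E2f8*, an atypical E2F repressor, had the smallest p of the list, at 29.7, 35.0 and 31.5 CPM, against 21.9, 24.9 and 23.5 CPM with control siRNA. Its log2 fold change of 0.45 (standard error 0.09) had an adjusted p of 0.373 in edgeR and 0.0351 with the replicate number as a block.

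Levels per length placed the 59 genes over a wide range. *Ube2c* was highest, with 70.9 ± 6.07 FPKM with *Sephs1* siRNA and 43.3 ± 9.13 FPKM with control siRNA (SD, n = 3). *Prc1* followed at 41.9 ± 3.45 FPKM with *Sephs1* siRNA and 24.9 ± 5.69 FPKM with control siRNA, and *Birc5* at 39.3 ± 7.96 FPKM with *Sephs1* siRNA and 27.4 ± 4.39 FPKM with control siRNA. Below it, *Bub3* at 38.3 ± 0.21 FPKM and *Top2a* at 37.0 ± 3.49 FPKM lay within 1 SD of *Birc5* among *Sephs1* siRNA libraries. At the low end, *Kif20b* had 2.58 ± 1.58 FPKM with *Sephs1* siRNA and 0.99 ± 0.94 FPKM with control siRNA, and *Cenpf* had 2.80 ± 1.57 FPKM with *Sephs1* siRNA and 1.08 ± 0.98 FPKM with control siRNA. These low levels of *Kif20b* and *Cenpf* do not differ from each other beyond their spread. Both are among the A-rich genes that were low in replicate 1.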

How the data were processed

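RNA of 6 libraries, 3 of *Sephs1* siRNA and 3 of control siRNA, was sequenced after poly-A selection and stranded library preparation. The authors aligned reads to mm10 with HISAT2 2.1.0 and quantified them with StringTie 1.3.4d, per the methods and the submitters' processing notes. Raw read counts for each gene, as deposited, and the authors' FPKM values, scaled to length and library size, were used. Transcripts that share sequence may have split counts.

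Genes with at least 1 read in every library were tested on the deposited counts with edgeR 4.0.16 in R 4.3.3 (quasi-likelihood test, TMM scaling, Benjamini-Hochberg adjustment over 14223 genes). DESeq2 1.42.0, limma 3.58.1 on FPKM values (log2 after adding 1 or 0.1), another scaling, other filters, each library left out and a block for replicate number were alternatives. Each edgeR p-value sets the difference between the groups against the spread between libraries, estimated in part from all genes. Same-numbered libraries deviated together from their group means (correlations 0.65, 0.34 and 0.61 over genes), each above 0.1, the limit for reading the numbers as pairs. The methods name no block, so the fit reported has none. Blocked values are given for each mitotic gene whose call at the unadjusted p they change. For most other lists the counts with the block are given, with blocked values for some genes only. No pair of libraries in a group agreed within sampling noise.

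The A content of the longest transcript came from GENCODE, on GRCm38. The correction for it, a spline of 6 degrees of freedom on the A share of the A-richest 1000 bases, fitted on 9944 other genes, was added after the data were seen. Gene coordinates and promoter windows came from RefSeq, GRCm38.p6. Members and lists were chosen with earlier results of these data known, so counts over a list describe it and were not tested. In each of the 9 function classes the 3 genes with the smallest p and the 1 with the largest were named with values, together with *Sephs1*, *Foxm1*, *Mybl2* and the gene with the smallest p of each other list. Others are named to complete a class. The edgeR and DESeq2 fits were also run on simulated counts in which genes varied independently of one another. The replicate shifts shared by A-rich genes were not simulated, and no outcome is given here.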

Additional observations from a re-analysis of the deposited data

How the results depend on the processing

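The 59 genes kept a positive median log2 fold change and 0 lower calls under every alternative run. The median was 0.49 to 0.86 with 1 library left out, the count at the unadjusted p 28 to 52, the count at the adjusted p 0 and *Sephs1* -1.02 to -0.61. The count of genes without overlap of the groups was 42 to 53 in these subsets. With fewer libraries the groups separate more easily in any gene, and the share of all genes is not given here. This range is therefore no measure of stability. Genes past the adjusted p numbered 19 with DESeq2, 0 with the replicate block, 55 with the replicate block without replicate 3 of both groups, and 1 (*Espl1*) with the A content correction and the replicate block. Over all genes the adjusted p was passed by 2 genes, by 0 to 3 with 1 library left out, by 234 with the replicate block, by 211 with DESeq2, by 0 and 1 with limma at pseudocounts of 1 and 0.1, and by 302 with the A content correction and the replicate block. With the replicate block and without replicate 1, 2 or 3 of both groups, 16, 81 and 1187 passed. *Sephs1* passed the adjusted p at -0.79 with the replicate block, -0.77 with DESeq2, -0.96 and -0.67 with the block without replicates 1 and 3, and -0.79 with the A content correction and the block.

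Of 648 values of the 36 named members under alternatives, 53 passed the adjusted threshold and 6 turned negative. None of these members passed it in the fit reported, so none could lose that call. All 6 were *Bub3*, which ranged from -0.044 to 0.054 with 1 library left out and was -0.016 and -0.041 with the block without replicates 1 and 2 of both groups. The cause of these changes was not tested.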
